A study of Mus musculus with 4 samples.

Results

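The genes described here encode the machinery that folds proteins in the endoplasmic reticulum (ER), removes those that fail to fold, and senses the load. They were chosen by symbol, with earlier results of these data known, as a set of 38 genes in 6 branches. Shares of the set given below beside those of all tested genes are therefore descriptions and no independent test. All 38 were among the 33677 gene symbols of the count table. The branches hold 5 sensors and regulators, 10 Hsp70 and Hsp90 chaperones with their partners, 9 disulfide and prolyl isomerases, 2 lectin chaperones, 8 degradation factors and 4 translocon subunits. Of the 38, 37 had enough reads to be tested. The remaining gene, Derl3, was read 5, 4, 10 and 3 times in vector 1, vector 2, Jagged1 1 and Jagged1 2, which are 0.331, 0.326, 0.484 and 0.217 CPM, the count scaled to library size.

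The cells were PyMT-A, a mammary tumour line of FVB/NJ mice. The 2 vector libraries came from cells infected with the PMSCV-puro virus, and the 2 Jagged1 libraries from cells infected with the virus PMSCV-Jagged1, named for the Notch ligand Jagged1. Both lines had therefore been through viral infection, and both were cultured in DMEM with FBS and P/S, with RNA taken in Trizol and selected for poly(A). Whether either line is a clone or a pool, and whether the replicates were separate cultures, is not stated in the labels. A p-value here reflects no more than how far the 4 libraries scatter, and that scatter may be technical.

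New secretory and membrane proteins enter the ER through the translocon and are bound there by BiP, the Hsp70 of this compartment, and by lectin chaperones that read their sugars, while isomerases form disulfide bonds. Proteins that do not fold are passed back to the cytosol for degradation. When unfolded proteins build up, the sensors IRE1, ATF6 and PERK start the unfolded protein response, in which spliced XBP1 and cleaved ATF6 switch on chaperone and degradation genes, and secretory cells such as mammary epithelium rely on this response.

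Total counts ranged from 12136227 to 20835208 per library. Jag1, the transduced gene, stood at 10.5 and 9.12 CPM in the vector libraries and at 274.7 and 324.5 CPM in the Jagged1 libraries, so the labels match the gene they name. Across the 13299 tested genes, the gap between replicate numbers 1 and 2 in vector went with that in Jagged1 (r = 0.425). With 2 pairs, that value cannot show whether the numbers mark pairs. Differences within numbers, Jagged1 1 minus vector 1 and Jagged1 2 minus vector 2, are given beside the main values. Rn18s-rs5, a ribosomal RNA row, took 0.982% of the counts of vector 1 and between 0.0735% and 0.177% of those of the other libraries. Epithelial markers were present throughout, Epcam for example at 836.1 to 965.2 CPM, but Krt5 had 3 counts over all 4 libraries. Ighm and the T cell genes Cd3e, Cd3g and Cd2 had 0 counts. Summed markers of plasma and B cells were 672.8, 482.1, 503.0 and 466.6 CPM in vector 1, vector 2, Jagged1 1 and Jagged1 2, nearly all from Sdc1 (672.5, 481.9, 502.7 and 466.2 CPM), which epithelial cells also express. Those of T cells were 2.25, 1.63, 1.21 and 1.08 CPM, all from Lck, and in both lists the Jagged1 sums overlapped with vector or lay below it. Summed marker levels of macrophages were 1.72, 10.3, 1.69 and 10.9 CPM in vector 1, vector 2, Jagged1 1 and Jagged1 2, those of fibroblasts 4.43, 6.92, 10.1 and 41.5 CPM, and those of endothelium 0.661, 2.77, 0.581 and 6.28 CPM. Macrophage sums followed the replicate number. Fibroblast sums were higher in both Jagged1 libraries than in both vector libraries. Of their genes, Pdgfra did the same, at 3.37 and 4.97 CPM in vector and 8.03 and 6.72 CPM in Jagged1, while Col1a1 overlapped. Fibroblast and endothelial sums were highest in Jagged1 2, where Col1a1 stood at 27.2 CPM while Lum had 0 counts. Their part in the results was not tested.

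ER folding genes lay lower in Jagged1 cells, and the chaperones lay lowest. All 37 tested genes had a negative log2 fold change, where 50.5% of all 13299 tested genes did, and their median was -0.31 against -0.00 over all tested genes. In 25 of the 37 the lines did not overlap and Jagged1 was the lower, against 15.1% of all tested genes, and in 0 of the 37 it was the higher without overlap, against 13.9%. Taken within number 1 the median was -0.37 and within number 2 it was -0.29, and 32 of the 37 were lower within both numbers, against 29.7% of all tested genes. In bulk RNA, fewer cells of a kind and less RNA per cell cannot be told apart. The branches differed in size, with medians of -0.60 for the Hsp70 and Hsp90 chaperones, -0.39 for the lectin chaperones, -0.36 for the isomerases, -0.30 for degradation, -0.21 for the sensors and -0.12 for the translocon.

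**Figure D1:**
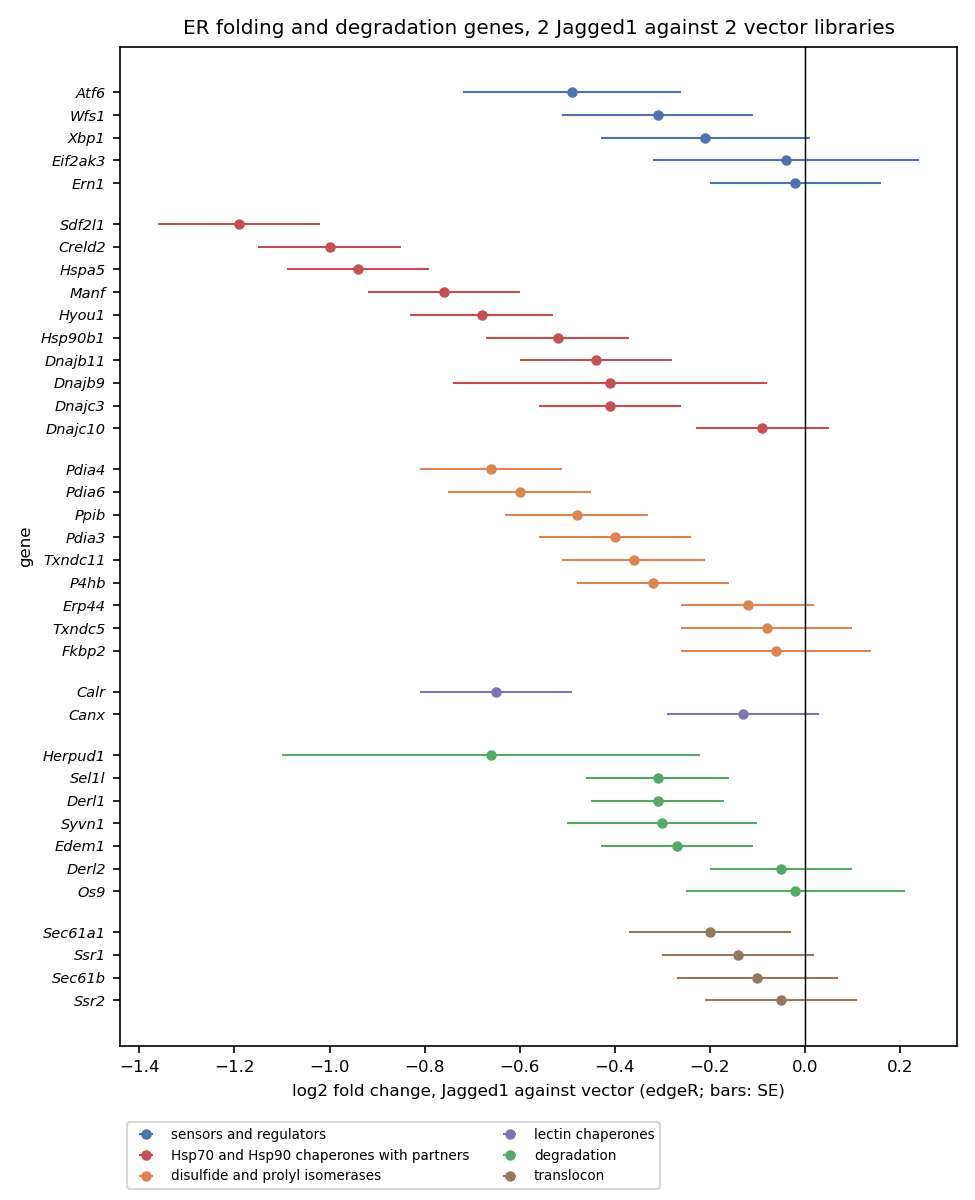
Log2 fold change of each of the 37 tested genes, Jagged1 against vector, on the horizontal axis, grouped and coloured by branch, with bars for the standard error (SE) of the edgeR fit. Every point lies left of 0, from -1.19 for Sdf2l1 to -0.02 for Ern1 and Os9.

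Few of these genes passed a test on their own. With edgeR's quasi-likelihood test and Benjamini-Hochberg adjustment over all genes, 0 of the 37 passed the threshold of 0.05. Over all genes that test called 0% lower and 0.00752% higher, the latter being Jag1 alone. At an unadjusted p under 0.05 stood 13 of the 37, all lower, against 2.15% of all genes. DESeq2 called 3 of the 38 lower, Hspa5, Sdf2l1 and Creld2, against 0.167% of the genes it tested. The same 3 were called by edgeR without the low-count filter, against 0.276% of genes. With a replicate block, edgeR called 1 of the 37 lower, Hspa5 (adjusted p = 0.0353), against 0.0752% of genes. The labels do not say that the replicate numbers mark a shared batch. Without Jagged1 1, edgeR called Sdf2l1 and Creld2, against 0.365% of genes, while without any other single library it called 0 of the 37. A log2 fold change below -0.5 was found in 10 of the 37 and in 5.10% of all tested genes.

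As a share of the messenger RNA the set was smaller in Jagged1 cells. The summed level of the 38 genes was 13743.0 and 13253.9 CPM in the vector libraries and 9621.6 and 9900.9 CPM in the Jagged1 libraries, which is 1.37% and 1.33% against 0.962% and 0.990% of scaled counts. The groups did not overlap, and the Jagged1 mean was 72.3% of the vector mean. Of the difference of 3737.2 CPM, Hspa5 alone made up 969.4 CPM. The 10 chaperones and partners together stood at 61.6% of their vector level, and the 4 translocon genes at 91.3%. No test was run on these sums; exact permutation of 4 libraries allows no two-sided p below 0.333.

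**Figure D2:**
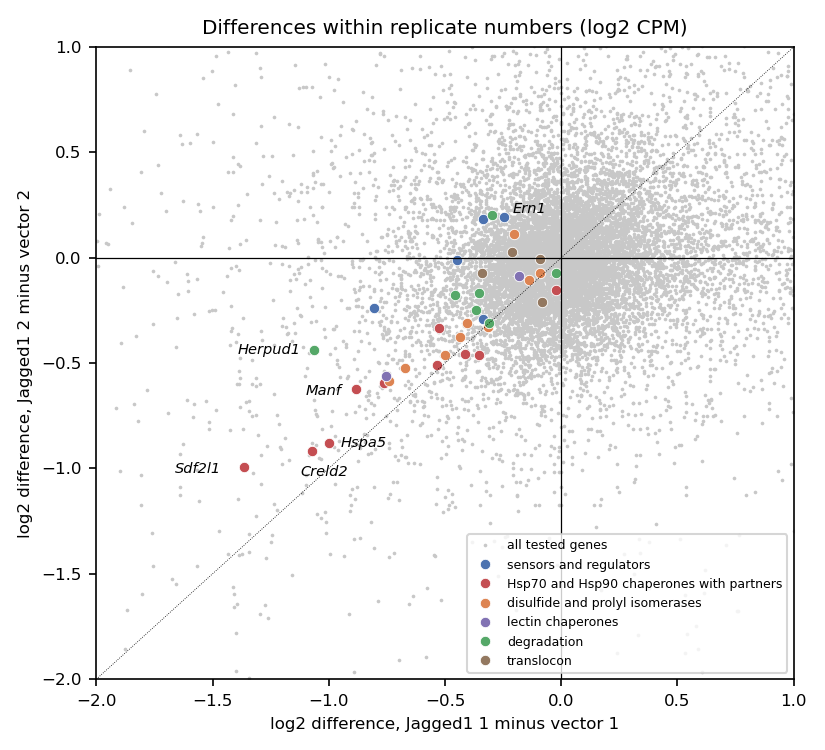
Log2 CPM difference within replicate number 1 (horizontal axis) and number 2 (vertical axis) for the 37 tested genes, coloured by branch, and for all tested genes in grey. Most chaperones lie near the dotted line of equal differences, and Ern1, Eif2ak3, Fkbp2, Os9 and Sec61b lie below 0 in number 1 and above 0 in number 2.

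The 2 replicate numbers gave like orders of the genes. Across the 37 genes the differences within number 1 and number 2 had a Pearson correlation of 0.80 (Spearman 0.79), against 0.23 (Spearman 0.19) across all 13299 tested genes. These are descriptions across genes that share the same 4 libraries. All tested genes include many with low counts and were not matched to the set for level, so the 2 correlations are not like for like.

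The promoters of several of these genes carry the ER stress response element (ERSE), the sequence through which ATF6 and the CCAAT-binding factor NF-Y are known to act. Its letters, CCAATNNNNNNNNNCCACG, were searched on both strands of the RefSeq promoter table (GRCm38.p6), from 250 bases before to 50 after each start, with ERSE-II (ATTGGNCCACG) and the core of the unfolded protein response element (TGACGTG), an XBP1 and ATF6 motif. The ERSE and ERSE-II share their last 5 letters, and an exact match was required. The table held 32 of the 38 genes, without Manf, Hyou1, Sec61a1, Ssr2, Derl1 and Atf6. An exact ERSE stood in 9 of these 32 (28.1%), against 37 of the 27025 genes of the table (0.137%) and 0.119% of its promoters. ERSE-II stood in 2 of the 32, against 0.0444% of genes and 0.0365% of promoters, and the TGACGTG core in 3 of the 32, against 2.22% of genes and 2.01% of promoters. The motifs were chosen as known elements of the ER stress response, so these shares are no independent test. A match is a description of the letters, not a measured binding site.

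The stretches below hold every ERSE and ERSE-II found in the set, apart from those of Dnajc3, Syvn1 and Dnajb11. Each runs 5′ to 3′ on the strand of its gene, ends before the RefSeq start, and has the matches in capitals.
Hspa5, chr2:34771840-34772089, plus strand: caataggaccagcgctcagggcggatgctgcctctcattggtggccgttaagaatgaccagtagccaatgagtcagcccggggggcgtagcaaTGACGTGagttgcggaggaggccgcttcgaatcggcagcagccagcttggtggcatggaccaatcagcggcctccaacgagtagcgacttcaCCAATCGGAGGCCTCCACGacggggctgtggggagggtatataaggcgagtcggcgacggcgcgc
Creld2, chr15:88819470-88819588, plus strand: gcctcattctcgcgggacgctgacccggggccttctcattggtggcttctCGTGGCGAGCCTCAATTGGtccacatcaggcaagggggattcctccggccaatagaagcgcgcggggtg
Herpud1, chr8:94386327-94386428, plus strand: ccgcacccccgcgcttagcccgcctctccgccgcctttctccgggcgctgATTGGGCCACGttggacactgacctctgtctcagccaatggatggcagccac
Calr, chr8:84847025-84847143, minus strand: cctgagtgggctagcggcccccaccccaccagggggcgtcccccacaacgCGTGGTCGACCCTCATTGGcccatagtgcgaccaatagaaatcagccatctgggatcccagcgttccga
Pdia6, chr12:17266441-17266559, plus strand: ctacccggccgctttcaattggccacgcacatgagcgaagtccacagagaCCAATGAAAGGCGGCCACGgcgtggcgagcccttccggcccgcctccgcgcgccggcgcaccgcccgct
Hsp90b1, chr10:86705483-86705694, minus strand: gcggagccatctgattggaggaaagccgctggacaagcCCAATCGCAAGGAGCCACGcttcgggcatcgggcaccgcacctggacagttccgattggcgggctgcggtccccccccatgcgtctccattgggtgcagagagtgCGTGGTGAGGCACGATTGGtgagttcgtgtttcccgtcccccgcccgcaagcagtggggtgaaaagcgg
Canx, chr11:50325750-50325868, minus strand: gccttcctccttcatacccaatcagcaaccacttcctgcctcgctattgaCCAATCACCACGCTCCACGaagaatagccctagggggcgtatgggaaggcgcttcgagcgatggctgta
Derl3, chr10:75893192-75893310, plus strand: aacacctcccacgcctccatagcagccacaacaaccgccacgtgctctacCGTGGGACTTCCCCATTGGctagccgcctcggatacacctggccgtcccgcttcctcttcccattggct

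Hspa5 holds its ERSE at positions -65 to -47 from the start (the first transcribed base being 1) and the TGACGTG core at -157 to -151. Hsp90b1 has 2 matches, at -212 to -194 and, in reverse orientation, at -107 to -89. The reverse matches of Creld2, Calr and Derl3 lie at -126 to -108, -162 to -144 and -156 to -138. Pdia6 (-98 to -80), Canx (-145 to -127), Dnajc3 (-105 to -87) and Syvn1 (-44 to -26) hold theirs in the gene's own orientation. The ERSE-II of Herpud1 lies at -52 to -42 and that of Dnajb11 after the start, at 8 to 18. The cores of Txndc5 (-138 to -132) and Txndc11 (-102 to -96 and -51 to -45) complete the matches.

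The values of genes with and without an ERSE overlapped, and the difference between them was not tested. The median log2 fold change was -0.56 over the 8 tested genes of the set with the motif and -0.27 over the 23 without it. Outside the set, 7 tested genes had an ERSE and a median of -0.02, with 4 of the 7 negative. Carrying the motif did not go with 1 size of difference, since Creld2 stood at -1.0 and Canx at -0.13. Sdf2l1, with the lowest value of all, had no exact match in its window, which says only that these letters are not in it.

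**Figure D3:**
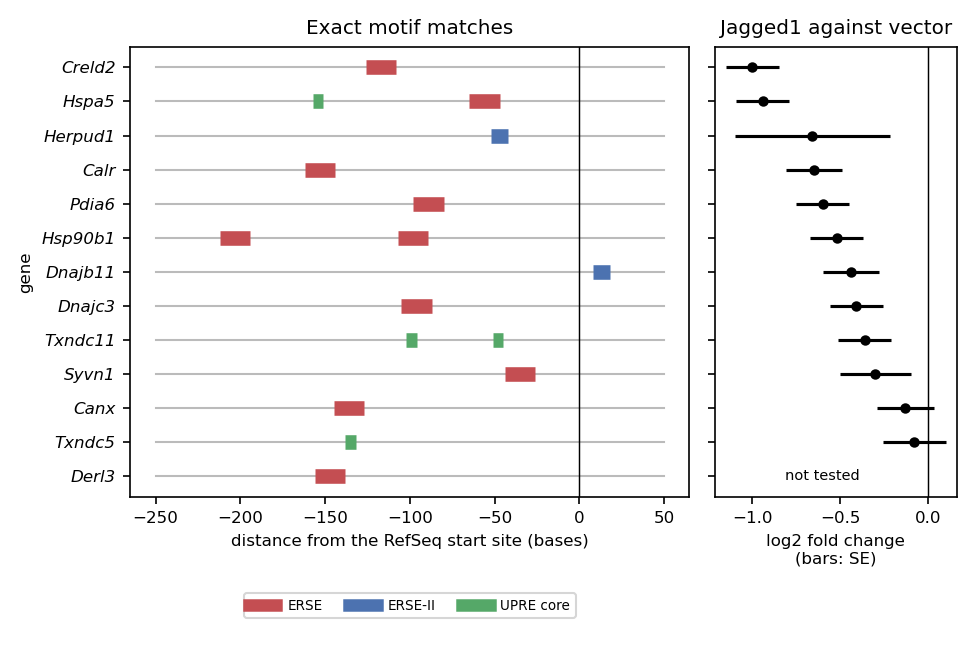
Left, exact matches to 3 promoter motifs by distance from the RefSeq start site in bases, for the 13 genes of the set with a match; right, their log2 fold change, Jagged1 against vector, with bars for the SE. Genes are ordered by fold change from Creld2 at -1.0 to Txndc5 at -0.08, and Derl3 was not tested.

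The sensors themselves differed little and less regularly than the chaperones. Ern1, which encodes the kinase and nuclease IRE1, stood at 65.6 and 62.9 CPM in vector and 55.3 and 71.9 CPM in Jagged1 libraries, which surround the vector values (log2 fold change -0.02 ± 0.18, SE). Eif2ak3, the gene of the kinase PERK, stood at 32.9 and 38.2 against 26.0 and 43.3 CPM, with the same overlap (-0.04 ± 0.28). Xbp1, the transcription factor whose messenger RNA IRE1 splices, stood at 127.5 and 138.4 CPM in vector and 93.3 and 137.5 CPM in Jagged1 libraries. The 2 Jagged1 libraries thus disagreed, 1 being near vector, and the log2 fold change was -0.21 ± 0.22. The counts per gene do not separate spliced from unspliced Xbp1.

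Atf6, the membrane-bound factor that is cut to become active, differed most among the sensors, with 69.1 and 70.7 CPM in vector and 39.4 and 59.9 CPM in Jagged1 libraries. These groups did not overlap, but the Jagged1 libraries lay far apart, and the log2 fold change was -0.49 ± 0.23 (edgeR adjusted p = 1). Leaving out Jagged1 1 gave -0.22, and leaving out Jagged1 2 gave -0.82. Wfs1, the gene of the ER membrane protein wolframin, stood at 27.5 and 32.5 against 21.7 and 26.6 CPM (-0.31 ± 0.20). Atf6 and Wfs1 were thus the 2 of the 5 genes lower without overlap, against 15.1% of all tested genes. Without Jagged1 1 the median of the 5 was 0.05, and within numbers 1 and 2 it was -0.34 and -0.01.

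Among the Hsp70 and Hsp90 chaperones, 9 of 10 genes were lower in Jagged1 without overlap, against 15.1% of all tested genes. An unadjusted edgeR p under 0.05 stood in 8 of 10, all lower, against 2.15%. Hspa5 encodes BiP and lies on chromosome 2 from 34771970 to 34777547 on the plus strand (GRCm38, GENCODE). That span begins before the RefSeq start used for the promoter, so it takes in the end of the stretch printed above. Hspa5 stood at 2070.7 and 1981.4 CPM in vector and 1036.9 and 1076.5 CPM in Jagged1 libraries. The spread within each line was far smaller than the distance between them. Its Jagged1 mean was 52.2% of the vector mean, with a log2 fold change of -0.94 ± 0.15 and an edgeR adjusted p of 0.72 against 0.00224 with DESeq2. Over the 10 alternatives the adjusted p ranged from 0.00224 to 1.

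Sdf2l1, whose product works with the BiP partner encoded by Dnajb11, had the lowest fold change of the set. It stood at 100.7 and 83.0 CPM in vector and 39.1 and 41.6 CPM in Jagged1 libraries, a Jagged1 mean at 43.9% of vector. Here the vector libraries differed by more than the Jagged1 libraries, and the lines did not overlap. Its log2 fold change was -1.19 ± 0.17, with an edgeR adjusted p of 0.712 against 0.00118 with DESeq2, and a range over the alternatives from 2.38e-05 to 1.

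Creld2, which encodes a secreted protein induced by ER stress, stood at 111.1 and 102.1 CPM in vector and 52.7 and 54.0 CPM in Jagged1 libraries. The lines again did not overlap (log2 fold change -1.0 ± 0.15, edgeR adjusted p = 0.712, DESeq2 adjusted p = 0.00621). Over the alternatives its adjusted p lay between 0.00105 and 1. With each library left out in turn, the log2 fold change ran from -0.98 to -0.89 for Hspa5, -1.33 to -1.02 for Sdf2l1 and -1.07 to -0.92 for Creld2.

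Manf, a BiP-binding protein that is also secreted, and Hyou1, a large Hsp70 that serves BiP as exchange factor, came next. Manf stood at 242.9 and 201.0 CPM in vector and 131.7 and 130.4 CPM in Jagged1 libraries (log2 fold change -0.76 ± 0.16, edgeR adjusted p = 0.914), and 9.25% of its exonic bases are shared with other genes. Hyou1 stood at 499.2 and 465.9 against 294.4 and 308.9 CPM (-0.68 ± 0.15, adjusted p = 0.914). In both genes the Jagged1 libraries agreed more closely than the distance to vector. Hsp90b1, the Hsp90 of the ER, stood at 1405.1 and 1421.1 against 970.4 and 998.6 CPM (-0.52 ± 0.15), and 15.7% of its exonic bases overlap other genes, among them 1810014B01Rik on the opposite strand, whose reads cannot be told apart without strand.

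The J proteins, which hand substrates to BiP and start its cycle, differed less than BiP. Dnajb11 stood at 187.5 and 167.4 CPM in vector and 140.5 and 121.9 CPM in Jagged1 libraries (log2 fold change -0.44 ± 0.16), and Dnajc3, also known as an inhibitor of PERK, at 159.9 and 174.8 against 125.0 and 127.1 CPM (-0.41 ± 0.15). Neither overlapped between the lines. Dnajb9, a J protein that restrains IRE1, varied more between replicate numbers than between lines, with 22.9 and 34.2 against 15.9 and 27.1 CPM (-0.41 ± 0.33), and ran from -0.84 to -0.07 with a library left out. Dnajc10, a J protein and disulfide reductase that prepares proteins for degradation, differed least in the branch, at 178.9 and 188.3 against 176.2 and 169.2 CPM (-0.09 ± 0.14).

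**Figure D4:**
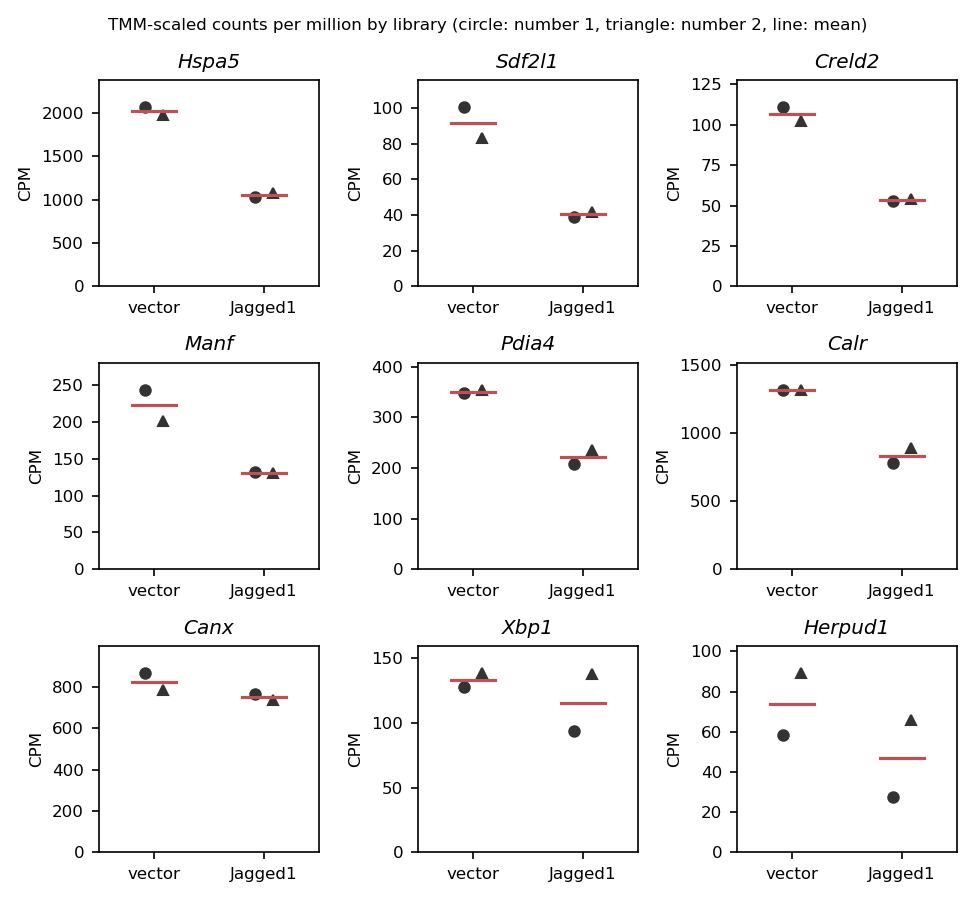
TMM-scaled CPM of 9 genes in each library on axes that start at 0, with circles for replicate number 1, triangles for number 2 and a line for the mean of each line. Hspa5, Sdf2l1, Creld2, Manf, Pdia4 and Calr separate the lines clearly, Canx by little, and Xbp1 and Herpud1 overlap.

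Of the isomerases, 7 of 9 were lower in Jagged1 without overlap, against 15.1% of all tested genes. Pdia4, a disulfide isomerase that joins the BiP complex, stood at 347.5 and 354.1 CPM in vector and 208.0 and 235.9 CPM in Jagged1 libraries (log2 fold change -0.66 ± 0.15, edgeR adjusted p = 0.914). Pdia6, also a partner of BiP, stood at 632.4 and 575.4 against 396.3 and 400.1 CPM (-0.60 ± 0.15). The lines were well apart in both genes. Pdia3, the isomerase that works with the lectin chaperones, stood at 1204.6 and 1276.5 against 890.2 and 984.5 CPM (-0.40 ± 0.16), and P4hb, the founding disulfide isomerase and a subunit of prolyl 4-hydroxylase, at 1822.5 and 1653.6 against 1463.9 and 1314.7 CPM (-0.32 ± 0.16).

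Txndc11 stood at -0.36 ± 0.15 (log2 fold change, SE), Erp44, which retains clients and oxidases by cycling from the Golgi, at -0.12 ± 0.14, and the thioredoxin-like Txndc5 at -0.08 ± 0.18. The prolyl isomerase genes did not go together, with Ppib (cyclophilin B) at -0.48 ± 0.15 and Fkbp2 at -0.06 ± 0.20. Ppib shares 25.0% of its exonic bases with Snx22 on the opposite strand. How reads on these bases were assigned is not known, as the strand setting is not given. Fkbp2 had 53.7 and 39.4 CPM in vector and 46.6 and 42.6 CPM in Jagged1 libraries, which lie between the vector values.

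The 2 lectin chaperones, soluble calreticulin and membrane-bound calnexin, which bind the same sugar on new glycoproteins, stood apart from each other. Calr (chromosome 8, 84841850 to 84846934, minus strand) was at 1314.7 and 1310.9 CPM in vector and 780.1 and 887.7 CPM in Jagged1 libraries, 63.5% of the vector mean (log2 fold change -0.65 ± 0.16, edgeR adjusted p = 0.914). Canx was at 866.5 and 782.2 against 764.3 and 737.2 CPM, 91.1% of the vector mean (-0.13 ± 0.16). In both genes Jagged1 was lower without overlap, against 15.1% of all tested genes. The margin was wide for Calr and narrow for Canx, although both promoters hold the ERSE printed above. The difference between the 2 genes was not tested.

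Of the degradation genes, 4 of 7 tested were lower in Jagged1 without overlap, against 15.1% of all tested genes. Their median of -0.30 was -0.16 without Jagged1 1. Herpud1, a membrane protein of the degradation complex that is a known target of both ER stress and ATF4, had the lowest value and the widest error, at 58.2 and 89.3 CPM in vector and 27.8 and 65.9 CPM in Jagged1 libraries (log2 fold change -0.66 ± 0.44). Its libraries followed the replicate number as much as the line, with differences of -1.06 within number 1 and -0.44 within number 2. With a library left out it ran from -1.40 (without Jagged1 2) to -0.16 (without Jagged1 1). Without Jagged1 1, Edem1 (-0.32), Derl1 (-0.30) and Sel1l (-0.23) lay lower than Herpud1. Sel1l and Syvn1, the adaptor and the ubiquitin ligase (HRD1) at the centre of the pathway, stood at -0.31 ± 0.15 and -0.30 ± 0.20. Derl1, a channel-like partner of that ligase, stood at 147.6 and 149.7 against 118.8 and 121.0 CPM, with close replicates and no overlap (-0.31 ± 0.14). Edem1, which trims mannose to mark glycoproteins for removal, stood at -0.27 ± 0.16.

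Not all of the pathway shared this. Derl2 stood at -0.05 ± 0.15, and Os9, a lectin that brings glycoproteins to the ligase, was at 123.2 and 130.8 CPM in vector and 100.1 and 150.3 CPM in Jagged1 libraries, on both sides of vector (-0.02 ± 0.23). Derl3, although its promoter holds an ERSE, stayed below 0.5 CPM in all 4 libraries, near the floor of 3 counts (0.144 to 0.247 CPM, for counting error only).

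Of the 6 branches the translocon had the median nearest 0, at -0.12, but the sensor median was nearer 0 within number 2 and without Jagged1 1. Sec61a1, which encodes the pore, was at 234.4 and 240.7 CPM in vector and 184.7 and 228.9 CPM in Jagged1 libraries (log2 fold change -0.20 ± 0.17). It was the 1 gene of 4 lower without overlap, against 15.1% of all tested genes. Ssr2, a subunit of the translocon-associated complex, was at 219.2 and 186.8 against 205.8 and 186.2 CPM (-0.05 ± 0.16), while the small subunit gene Sec61b stood at -0.10 ± 0.17 and Ssr1 at -0.14 ± 0.16. Their median was 0.0084 without vector 1, and -0.15 and -0.04 within numbers 1 and 2.

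Per kilobase of exon the most abundant genes of the set in vector cells were P4hb (607.5 CPM per kb), Hspa5 (479.1), Calr (455.8), Pdia3 (395.2) and Hsp90b1 (350.5). In Jagged1 cells these 5 were P4hb (485.6 CPM per kb), Pdia3 (298.6), Calr (289.5), Hspa5 (249.9) and Hsp90b1 (244.2), so that Hspa5 went from the second to the fourth place. The lowest tested level in vector was that of Eif2ak3, at 5.89 CPM per kb. Across the 37 genes the vector level per kilobase and the log2 fold change had a Pearson correlation of -0.41 (Spearman -0.43), a description over genes from the same libraries. The vector values enter both measures, with opposite sign in the fold change, so scatter in the vector libraries alone can make this correlation negative. It therefore cannot show whether abundant genes differed more. The lengths are of GENCODE M21, which need not be the annotation used for counting.

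Other ER genes, from 7 lists kept apart from the set, had a median nearer 0. Of 67 tested, 47 were lower and 20 higher, with a median of -0.08. In 22 of the 67 Jagged1 was lower without overlap, against 15.1% of all tested genes, and in 9 it was higher, against 13.9%. Among the 17 further degradation genes it was lower without overlap in 7 and higher in 1. Of the 67, 0 passed edgeR and 10 had an unadjusted edgeR p under 0.05, against 3.96% of all genes. DESeq2 called 2 lower, Chac1 and Trib3, against 0.167% of the genes it tested. Medians were -0.07 for 12 genes of oligosaccharide transfer and trimming, -0.09 for 17 further degradation genes and -0.06 for 12 further translocon and signal peptidase genes. They were -0.03 for 6 exchange factors and J proteins, 0.13 for 8 genes of oxidative folding and 0.09 for 5 further sensors, proteases and bZIP factors. The genes with the smallest p in these lists were Uggt2, a glycoprotein glucosyltransferase (log2 fold change 0.55), Vimp (-0.48), Tram2 (0.34), Dnajb14 (0.24), Pdia5 (-0.76) and Creb3 (-0.35), each with an edgeR adjusted p of 1.

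The list that stood with the chaperones was the PERK arm, part of which belongs to the ATF4 programme. All 7 genes were lower, with a median of -0.83, and 5 of 7 were lower without overlap, against 15.1% of all tested genes. Chac1, a glutathione-degrading enzyme, was at 38.6 and 45.0 CPM in vector and 19.0 and 19.4 CPM in Jagged1 libraries (log2 fold change -1.12, edgeR adjusted p = 0.712, DESeq2 adjusted p = 0.0125). Trib3, a pseudokinase, was at 162.6 and 164.2 against 85.6 and 98.2 CPM (-0.83, adjusted p = 0.882 with edgeR and 0.0434 with DESeq2). Ddit3, the gene of CHOP, stood at -1.03 and Atf4 itself at -0.55.

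Chaperones of other compartments had medians nearer 0. The median was -0.08 over 18 cytosolic chaperones, with 12 lower and 6 higher. It was -0.09 over 9 mitochondrial chaperones and proteases, all lower, against 50.5% of all tested genes. Jagged1 was lower without overlap in 2 of the 18 and 3 of the 9, against 15.1%. It was higher in 0 of either list, against 13.9%. The 3 mitochondrial genes were Hspa9 (-0.35), Grpel1 (-0.38) and Dnaja3 (-0.34). Genes of transport from the ER to the Golgi had a median of -0.11 over 20 genes, with 15 lower. In 9 of the 20 Jagged1 was lower without overlap, against 15.1% of all tested genes, and in 0 higher, against 13.9%. In these lists 0 genes passed with edgeR, which over all genes called 0% lower and 0.00752% higher. With DESeq2 0 passed, against 0.167% lower and 0.135% higher of the genes it tested. An unadjusted edgeR p under 0.05 stood in 0, against 3.96% of all tested genes. The genes of smallest p were Hspa1a (log2 fold change -0.27), Dnaja3 (-0.34) and Sec24d (-0.41). The lists and the set were fitted on the same libraries, and the differences between their medians were not tested.

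**Figure D5:**
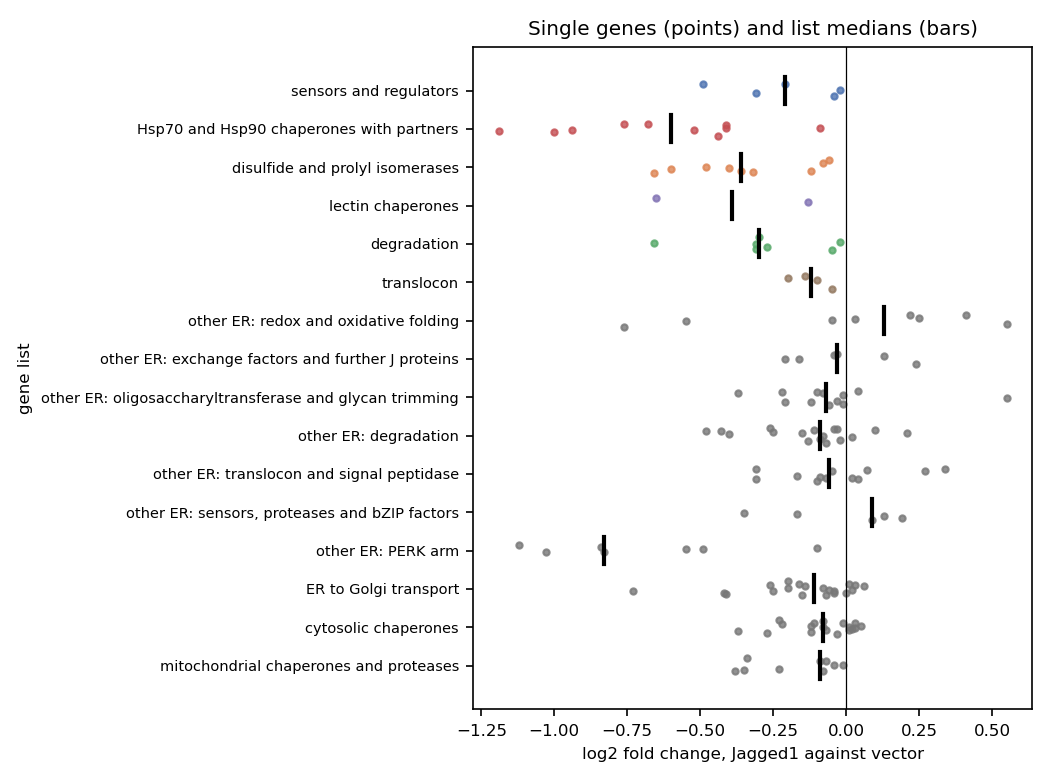
Log2 fold change, Jagged1 against vector, of single genes (points, with vertical jitter) and list medians (black bars) for the 6 branches of the set in colour and 10 other lists in grey. The Hsp70 and Hsp90 chaperones (median -0.60) and the PERK arm (-0.83) lie left of the other lists, whose medians run from -0.39 to 0.13.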

How the data were processed

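Poly(A) RNA gave 2 vector and 2 Jagged1 libraries. The authors deposited unnormalized counts of reads for each gene symbol, made with STAR 2.6.0c and featureCounts 1.6.2 on mm10 (GRCm38), per the submitters' processing notes. Annotation release and strand setting: not given in the sources used here. The members and lists were chosen with earlier results of these data known.

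Samples were grouped by the labels' virus. The low-count filter was filterByExpr (minimum count 10) in edgeR 4.0.16, after which 13299 genes were scaled by TMM and tested with the quasi-likelihood F test (R 4.3.3), with Benjamini-Hochberg adjustment over all tested genes. SE is the absolute log2 fold change over the square root of F. CPM are TMM-scaled counts, and within-number differences use log2 CPM with a prior count of 2. The fit was also run on simulated counts with known fold changes, 1 fixed dispersion and no replicate-number effect. That setting differs from these libraries, so it does not show how well the fit works on them. Alternatives were DESeq2 1.42.0, limma-voom 3.58.1, relative log expression factors, no low-count filter, a minimum mean of 5 CPM, a replicate block and each library left out. Named genes were those past a threshold, the 5 with the smallest p, all sensors and the extremes of each branch, and in the other lists those past a threshold and the smallest p. Other members are given by fold change and SE. Replicates differed by more than sampling noise (chi-square per degree of freedom 21.8 for vector and 33.8 for Jagged1). Promoters came from RefSeq, and gene coordinates and exon lengths from GENCODE M21, so the starts of a gene can differ between them. For 9 of 10 promoters with an ERSE or ERSE-II before the start, sequence after the RefSeq start was found in a GENCODE transcript of the gene. Among symbols, 27 rows had turned into dates and are not reported by name.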

Additional observations from a re-analysis of the deposited data

How the results depend on the processing

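The number of genes called over the whole table was 47 with DESeq2, 169 with no filter on low counts and 17 with a replicate block, and ran from 0 to 193 when a library was left out, against 1 as reported. Of the ER set, 3 were called with DESeq2, 3 without the filter, 1 (Hspa5, adjusted p = 0.0353) with the replicate block, and 0 to 2 with a library left out, against 0. With limma-voom, relative log expression factors or a minimum mean of 5 CPM, 0 were called. The block rests on numbers that the labels do not say mark a shared batch; the replicate difference of the vector lines correlated with that of the Jagged1 lines across genes (r = 0.425), and with 2 pairs this does not show pairing.

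The median of the set ran from -0.42 (without Jagged1 2) to -0.23 (without Jagged1 1) with a library left out. The sensor median ran from -0.46 to 0.048 and the translocon median from -0.19 to 0.0084. Genes near 0 changed sign with a library left out, running from -0.22 to 0.16 for Ern1 (0.0035 with a minimum mean of 5 CPM), -0.45 to 0.29 for Eif2ak3, -0.51 to 0.048 for Xbp1, -0.23 to 0.090 for Txndc5, -0.27 to 0.20 for Fkbp2, -0.11 to 0.013 for Derl2, -0.34 to 0.24 for Os9, -0.26 to 0.089 for Sec61b and -0.17 to 0.091 for Ssr2. Of 370 single-gene values, 344 kept direction and side of the threshold, 9 became calls and 17 changed sign, with the cause not tested. A fit without a library leaves 1 in its line, which is assumed to vary like the other line. Counting error limits little here beyond Derl3.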
